A study of Mus musculus with 24 samples.

Results

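The Cyp2b and Cyp2a genes of the mouse were followed across 24 liver libraries, through the 9 rows of the deposited count table named Cyp2b9, Cyp2b10, Cyp2b13, Cyp2b19, Cyp2b23, Cyp2a4, Cyp2a5, Cyp2a12 and Cyp2a22, out of 23411 gene symbols. The 9 genes were chosen by name and family, with earlier results of these data known. The study asked how liver gene expression differs when the nuclear receptor HNF4α is made only from its second promoter. Wild type (WT) mice carried the normal Hnf4a gene, and α7HMZ mice carried an exon swap in Hnf4a that leaves P2-HNF4α as the only product. All mice were males aged 16 to 20 weeks on a mixed 129/Sv plus C57BL/6 background. Livers were taken at 10:30, 13:30 or 20:30 from mice with free access to chow, or at 10:30 after a fast of 12 h, with 3 mice of each genotype at each of these 4 settings, which makes 8 groups. Each mouse gave 1 poly(A) library, and library totals ran from 8545959 to 28445590 counts.

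Cytochrome P450 enzymes of the CYP2A and CYP2B subfamilies oxidise drugs, steroids and other lipophilic compounds in the endoplasmic reticulum of hepatocytes, with electrons passed on by P450 oxidoreductase (Por). Cyp2b10 is the classical gene that phenobarbital induces through the constitutive androstane receptor CAR, which the gene Nr1i3 encodes, and its transcript is widely used as the readout of CAR. Cyp2b9, Cyp2b13 and Cyp2a4 are known as female-biased genes of the mouse liver, where the growth hormone pattern of the male keeps them low. Cyp2a4 hydroxylates testosterone and Cyp2a5 is the coumarin hydroxylase. Cyp2a5 is known to be driven through the day by the clock output factors that bind the D-box. Cyp2a12 and Cyp2a22 are further CYP2A enzymes, and Cyp2b19 is known mainly as a gene of the skin.

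All 9 genes lay in 1.14 Mb of chromosome 7 (mm10, GENCODE annotation, 25897620 to 27037375), in the order Cyp2b10, Cyp2b13, Cyp2b9, Cyp2a4, Cyp2b23, Cyp2b19, Cyp2a5, Cyp2a22 and Cyp2a12. Coding sequences of Cyp2a4 and Cyp2a5 were 98.4% identical and differed at 23 of 1482 bases, and those of Cyp2a12 and Cyp2a22 were 97.0% identical. Cyp2b9 was 92.7% identical to Cyp2b13 and 87.8% identical to Cyp2b10. The libraries were read over 75 bases, and the authors allowed 1 unique alignment per read. Of all windows of 75 bases in the annotated transcripts of Cyp2b10, 96.9% occurred in no other gene's transcript, and this share was 94.8% for Cyp2b9, 83.6% for Cyp2b13, 77.9% for Cyp2a4, 74.5% for Cyp2a5, 85.7% for Cyp2a12 and 86.6% for Cyp2a22. Cyp2a4 shared 21.0% of its windows with Cyp2a5, so the split of reads between these 2 genes is uncertain, as is that between Cyp2a12 and Cyp2a22 and between Cyp2b13 and the pseudogene Gm45225. Strand was not recorded by the kit. Reads over the first bases of Cyp2a4 (26307169 to 26307286) therefore cannot be told apart from those of Gm42375, an antisense gene over its start. Nor can reads of Cyp2a22 be told apart from those of the pseudogene Cyp2a21-ps on the opposite strand.

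The promoters carried the same pairing. In the 250 bases before the RefSeq start (GRCm38.p6), Cyp2b9 and Cyp2b13 were 99.2% identical and Cyp2a4 and Cyp2a5 were 98.4% identical, whereas Cyp2b10 and Cyp2b9 were 73.8% identical over 240 aligned bases. The promoters of Cyp2b10, of Cyp2b9 and Cyp2b13, of Cyp2a5 and of Cyp2a12 are shown because these genes stood for the 4 patterns described here, and each is read on the plus strand, on which these 5 genes lie. Capitals mark matches to the 3 motifs that any member held, namely the D-box TTATGNAA (here as its reverse complement), the nuclear receptor half-site AGGTCA and the relaxed HNF4 core CAAAGNNCA, all searched on both strands.
Cyp2b10 (chr7:25897408-25897657): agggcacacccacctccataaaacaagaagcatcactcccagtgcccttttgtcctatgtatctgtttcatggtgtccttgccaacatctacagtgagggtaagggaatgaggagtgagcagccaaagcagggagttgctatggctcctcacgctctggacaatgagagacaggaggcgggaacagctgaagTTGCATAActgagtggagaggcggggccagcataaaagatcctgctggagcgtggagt
Cyp2b9 (chr7:26173159-26173408): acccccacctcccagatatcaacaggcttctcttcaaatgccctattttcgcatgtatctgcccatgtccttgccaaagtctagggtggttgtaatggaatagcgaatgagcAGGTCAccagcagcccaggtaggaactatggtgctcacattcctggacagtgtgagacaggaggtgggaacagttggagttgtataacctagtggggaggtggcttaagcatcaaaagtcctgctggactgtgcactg
Cyp2b13 (chr7:26061245-26061494): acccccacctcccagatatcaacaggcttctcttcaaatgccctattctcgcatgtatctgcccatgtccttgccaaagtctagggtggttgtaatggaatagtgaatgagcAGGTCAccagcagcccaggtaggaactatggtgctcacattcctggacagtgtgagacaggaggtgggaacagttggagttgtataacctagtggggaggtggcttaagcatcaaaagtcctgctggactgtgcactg
Cyp2a5 (chr7:26835089-26835338): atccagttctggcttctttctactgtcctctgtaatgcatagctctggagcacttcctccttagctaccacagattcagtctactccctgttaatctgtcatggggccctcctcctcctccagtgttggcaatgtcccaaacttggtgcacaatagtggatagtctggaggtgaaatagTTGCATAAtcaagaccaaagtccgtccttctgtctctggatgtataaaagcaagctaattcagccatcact
Cyp2a12 (chr7:27028840-27029089): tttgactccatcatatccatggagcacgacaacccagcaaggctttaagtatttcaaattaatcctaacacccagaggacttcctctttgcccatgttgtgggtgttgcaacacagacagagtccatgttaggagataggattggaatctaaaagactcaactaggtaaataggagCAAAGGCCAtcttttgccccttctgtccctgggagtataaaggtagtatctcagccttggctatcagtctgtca

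The D-box letters began 58 bases before the start of Cyp2b10, 71 before that of Cyp2a5 and 70 before that of Cyp2a4, and occurred also before Cyp2b19 and Cyp2b23, but not before Cyp2b9 and Cyp2b13. They occurred in 3.07% of all 32851 promoter windows, which run 250 bases before the start. AGGTCA occurred in Cyp2b9, Cyp2b13, Cyp2b19 and Cyp2b23 (14.02% of all windows), and CAAAGNNCA in Cyp2a12 and Cyp2a22 (5.49%). No member held CAAAGTCCA (0.38%), the STAT5 palindrome TTCNNNGAA (7.02%) or AGTTCA (11.84%) in this window. Only exact letters were searched, and Cyp2a4 and Cyp2a5 held caaagtccg, which differs from CAAAGTCCA in its last letter. A match is a description of letters and not of a site that is bound.

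Levels are given as CPM, the counts-per-million level after scaling of the libraries by TMM factors, and differences as log2 fold changes with SE from edgeR quasi-likelihood fits across all genes, called at a Benjamini-Hochberg adjusted p under 0.05 over all genes tested. Cyp2b19 had 0 counts in all 24 libraries, for which 3 counts of 451537524 set a limit of 0.00664 CPM before scaling (counting error only), and Cyp2b23 had 4 counts, in 3 α7HMZ libraries. These genes were below the filter on low counts, and the other 7 members were tested. In livers of fed mice, averaged over the 3 times, Cyp2b9, Cyp2b13 and Cyp2a4 were higher in α7HMZ and Cyp2b10, Cyp2a12 and Cyp2a22 were lower, while Cyp2a5 did not pass the test. Of the 7 members 6 were called in this comparison, 3 in each direction, against 26.5% of all 13334 genes tested (13.3% higher and 13.2% lower). Cyp2b10 thus moved the opposite way from its closest expressed paralogs. These p-values rest on the spread between mice within groups, shared over all groups of a fit, with 3 mice in each group.

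**Figure D1:**
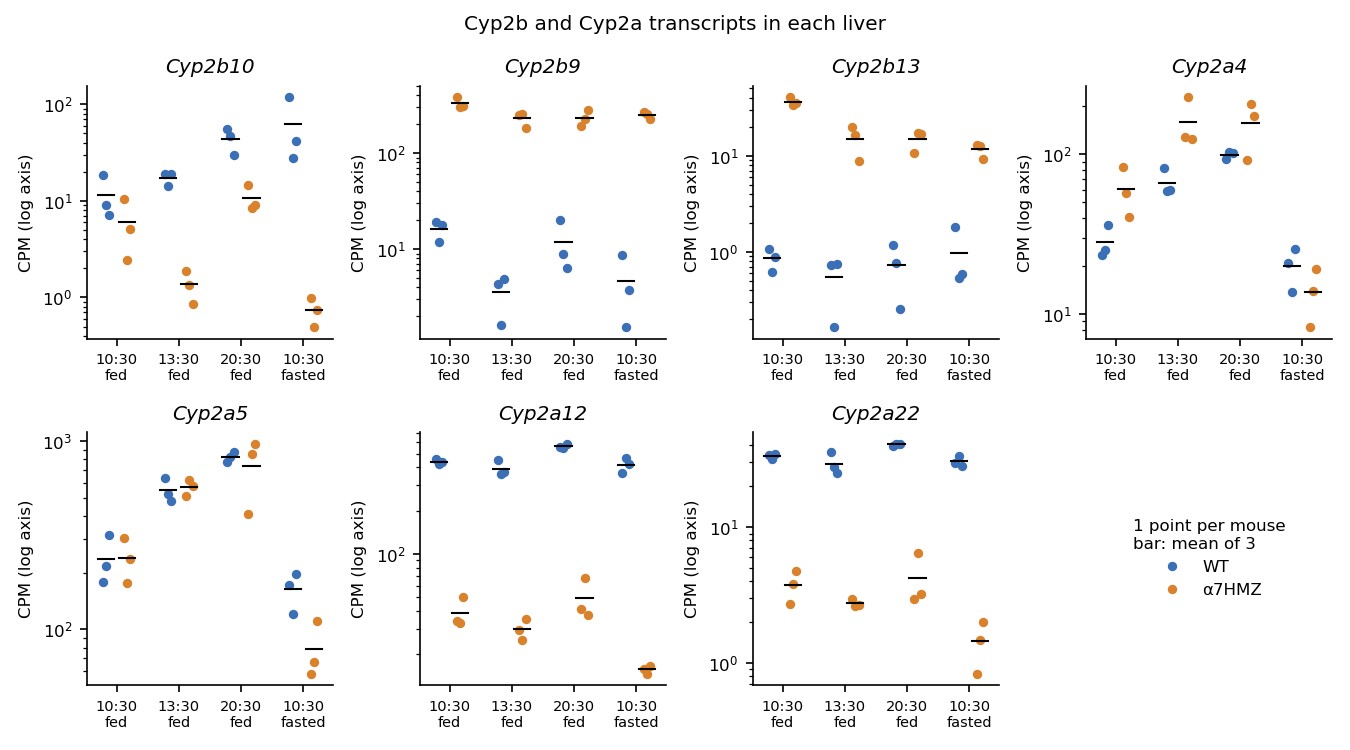
CPM (log axis) of the 7 tested members in each of the 24 livers, by time and feeding, with WT in blue and α7HMZ in orange, 1 point per mouse and a bar at the mean of 3. Cyp2b9 and Cyp2b13 were higher and Cyp2a12 and Cyp2a22 lower in every α7HMZ liver at each setting, Cyp2b10 overlapped between genotypes at 10:30 in fed mice alone, and Cyp2a5 overlapped at all 3 fed times.

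Some libraries stood apart. Rn45s, a ribosomal RNA precursor, took 50.8% of the counts of α7HMZ 10:30 fed replicate 1, and Krt19, a bile duct keratin, reached 18.5 CPM in WT 20:30 replicate 2 and 14.3 and 12.6 CPM in α7HMZ 20:30 replicates 1 and 3, beside the pancreatic transcript Ctrb1 at 5.04, 1.87 and 3.33 CPM. Rn45s took 3.76% of the counts of that α7HMZ 20:30 replicate 3. WT fasted replicates 1 and 2 held 7.12 and 4.63 CPM of Krt19 and 0.396 and 0.535 CPM of Ctrb1, against 1.28 and 0 CPM in replicate 3. Per the labels, all fed 10:30 and WT fasted libraries were run on flow cell 375 and all others on flow cell 377. Each fed comparison of genotypes therefore lay within a flow cell, whereas the fasted α7HMZ livers cannot be told apart from their flow cell. Hnf4a read as a whole does not check the exon swap. Its CPM ran from 580 to 1106 in fed WT and from 801 to 1286 in fed α7HMZ livers (log2 0.26 ± 0.10, adjusted p = 0.0580).

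Cyp2b10 was lower in α7HMZ livers, by 4.62-fold in the fed average. At 10:30 the WT livers of fed mice held 18.5, 9.05 and 7.10 CPM and the α7HMZ livers 10.4, 2.44 and 5.14 CPM. At 13:30 these were 19.0, 14.2 and 18.8 CPM against 1.88, 1.35 and 0.860 CPM. At 20:30 they were 55.1, 46.7 and 29.8 CPM against 14.6, 8.41 and 9.14 CPM. The genotypes overlapped at 10:30, and every α7HMZ liver was below every WT liver at 13:30 and 20:30. The log2 fold change was -2.21 ± 0.24 in the fed average (adjusted p = 1.06e-06), -3.61 ± 0.45 at 13:30 (adjusted p = 2.24e-05) and -2.02 ± 0.38 at 20:30 (adjusted p = 0.00115). At 10:30 it was -0.99 ± 0.41 and missed the threshold (adjusted p = 0.106). It passed with the replicate number as a block (adjusted p = 0.0293), although these numbers did not pair the mice. It also passed without α7HMZ replicate 1, the library rich in Rn45s (-1.60, adjusted p = 0.0138). Leaving out each fed library in turn gave -1.60 to -0.46 on the log2 scale.

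The Cyp2b10 difference between genotypes differed between the fed times, of which 10:30 lay on another flow cell. A flow cell shift shared by both genotypes cancels in the genotype by time term, but 1 that differs by genotype does not. The adjusted p of this term was 0.0425, against 4.99% of all genes called in that test, and Cyp2b10 was the 1 member called. This call was lost when any 1 of 10 of the 18 fed libraries was left out (adjusted p 0.0378 to 0.0951 over all 18): WT 10:30 replicates 2 and 3, WT 13:30 replicates 1 and 3, WT 20:30 replicate 3, α7HMZ 10:30 replicate 3, all α7HMZ 13:30 replicates and α7HMZ 20:30 replicate 3. It was also lost in a fit of all 24 libraries (adjusted p = 0.0812) and without the 4 libraries with most Rn45s, Krt19 or Ctrb1 (adjusted p = 0.0877). From 13:30 to 20:30, both on 1 flow cell, Cyp2b10 rose 7.65-fold in α7HMZ livers (log2 2.93 ± 0.46, adjusted p = 0.00077) and 2.54-fold in WT livers (log2 1.34 ± 0.37, adjusted p = 0.0151). In WT this call was lost without 13:30 replicate 2 (adjusted p = 0.0583) or 20:30 replicate 1 (adjusted p = 0.0602). In this step 2 of the 7 members were called in WT and 2 in α7HMZ, all higher, against 21.6% (11.6% higher, 9.97% lower) and 5.21% (3.16% higher, 2.05% lower) of all genes called. The second member was Cyp2b9 in WT and Cyp2a12 in α7HMZ.

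Between fasted and fed livers Cyp2b10 differed in opposite directions in the 2 genotypes, and only the WT difference lay within 1 flow cell. The fasted WT livers held 118, 28.04 and 41.2 CPM and the fasted α7HMZ livers 0.998, 0.494 and 0.750 CPM. All fasted WT livers thus lay above all fed WT livers at 10:30, and all fasted α7HMZ livers below all fed α7HMZ livers. Within WT, all on 1 flow cell, the log2 fold change with fasting was 2.41 ± 0.53 (adjusted p = 0.00618), and 1.56 without fasted replicate 1, the liver at 118 CPM of Cyp2b10 and 7.12 CPM of Krt19 (adjusted p = 0.0253). In α7HMZ it was -3.01 ± 0.74 (adjusted p = 0.0164), a call that was lost without fed replicate 1 (-2.42, adjusted p = 0.0555) or fasted replicate 2 (-2.74, adjusted p = 0.0683), and fasting cannot be told apart from the flow cell there. Fasted livers of the genotypes differed by -6.42 ± 0.71 on the log2 scale (adjusted p = 5.41e-05), and by -5.56 without WT fasted replicate 1. The same flow cell limit holds for this contrast and for the genotype by fasting term. The genotype by fasting term was -5.42 ± 0.91 (adjusted p = 0.0295), was lost without any 1 of 6 of the 12 libraries at 10:30 (WT fed replicates 2 and 3, α7HMZ fed replicate 3 and each α7HMZ fasted replicate, adjusted p 0.0518 to 0.0884), and was -4.56 without WT fasted replicate 1 and -4.83 without α7HMZ fed replicate 1, both called.

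Ordered by mean CPM ± SD (n = 3 each), Cyp2b10 stood at 62.3 ± 48.4 in fasted WT, 43.9 ± 12.9 at 20:30, 17.4 ± 2.69 at 13:30 and 11.5 ± 6.07 at 10:30 in fed WT livers. The fed α7HMZ livers followed with 10.7 ± 3.38 at 20:30, 5.99 ± 4.05 at 10:30 and 1.36 ± 0.510 at 13:30, and the fasted α7HMZ livers came last with 0.747 ± 0.252. Single livers overlapped between neighbours in this order, except between WT 20:30 and WT 13:30 and between α7HMZ 10:30 and α7HMZ 13:30.

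Cyp2b9 was 29.4-fold higher in fed α7HMZ livers, the reverse of Cyp2b10. Fed WT livers held 19.4, 11.8 and 17.9 CPM at 10:30, 4.35, 1.63 and 4.87 at 13:30, and 20.2, 8.92 and 6.42 at 20:30. Fed α7HMZ livers held 381, 302 and 308 CPM at 10:30, 247, 259 and 185 at 13:30, and 190, 227 and 284 at 20:30. The lowest α7HMZ liver was thus far above the highest WT liver. The log2 fold change was 4.88 ± 0.22 in the fed average (adjusted p = 6.95e-12), 4.34 ± 0.37 at 10:30, 6.04 ± 0.41 at 13:30 and 4.26 ± 0.37 at 20:30 (4.96 without WT 20:30 replicate 1), all called. The genotype by time test gave an adjusted p of 0.0543. In WT, Cyp2b9 rose from 13:30 to 20:30 (log2 1.81 ± 0.39, adjusted p = 0.00402; 1.10 and adjusted p = 0.0424 without WT 20:30 replicate 1), and in α7HMZ the same step was 0.02 ± 0.31.

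In fasted WT livers Cyp2b9 held 8.61, 1.54 and 3.79 CPM, all below the fed WT livers at 10:30. The fasting difference in WT was -1.80 ± 0.39 on the log2 scale (adjusted p = 0.00519; -2.60 without fasted replicate 1), opposite in sign to that of Cyp2b10 in the same livers. Fasted α7HMZ livers held 268, 257 and 226 CPM, and the fasting difference there was -0.40 ± 0.33 (adjusted p = 0.484). Between the fasted genotypes the log2 difference was 5.72 ± 0.42 (6.52 without WT fasted replicate 1). Neither of these differences of fasted α7HMZ livers can be told apart from the flow cell.

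Cyp2b13 was also higher in α7HMZ at every setting, at a lower level than Cyp2b9. The 12 WT livers ran from 0.166 to 1.83 CPM, on 4 to 37 counts. Fed α7HMZ livers held 40.1, 33.9 and 35.2 CPM at 10:30, 19.7, 16.5 and 8.83 at 13:30, and 10.5, 17.1 and 16.8 at 20:30. No WT liver reached any α7HMZ liver. The fed average difference was 4.83 ± 0.24 on the log2 scale (28.5-fold, adjusted p = 2.35e-11), and single times gave 5.36, 4.89 and 4.24 in the order of the day (the last 5.05 without WT 20:30 replicate 1). Fasted α7HMZ livers held 12.9, 12.7 and 9.29 CPM, which was -1.64 ± 0.26 against fed (adjusted p = 0.000958) and 3.52 ± 0.33 against fasted WT (4.35 without WT fasted replicate 1). These values of fasted α7HMZ livers cannot be told apart from the flow cell. In WT the fasting difference was 0.19 ± 0.42 (adjusted p = 0.78), so Cyp2b9 was called for fasting in WT and Cyp2b13 in α7HMZ. The ratio of Cyp2b9 to Cyp2b13 counts at 10:30 was 19.0 ± 0.980 in fed and 4.67 ± 1.76 in fasted WT livers, and 9.05 ± 0.393 in fed and 21.8 ± 2.21 in fasted α7HMZ livers (SD, n = 3), a difference that was not tested.

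**Figure D2:**
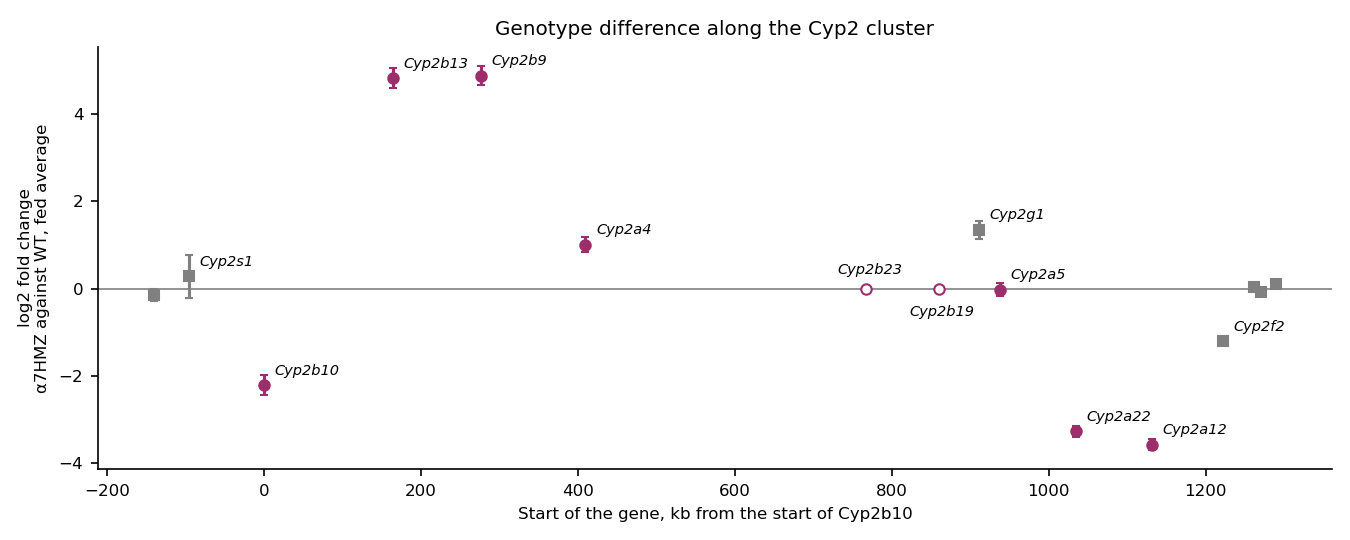
Log2 fold change ± SE of α7HMZ against WT in the fed average, against the distance of each gene's start from that of Cyp2b10 in kb. Members are circles, and squares are other tested genes from the chosen lists, not all genes of the stretch. Open circles mark Cyp2b19 and Cyp2b23, which were not tested and are drawn at 0. Cyp2b10, at the left end, lies at -2.21, its neighbours Cyp2b13, Cyp2b9 and Cyp2a4 lie above 0, and Cyp2a22 and Cyp2a12, at the right end, lie below -3.

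Among the CYP2A genes, Cyp2a12 and Cyp2a22 fell together in α7HMZ. Cyp2a12 ran from 362 to 583 CPM in fed WT livers and from 25.0 to 68.0 CPM in fed α7HMZ livers. Its log2 fold change was -3.58 ± 0.12 in the fed average (11.9-fold, adjusted p = 9.5e-14), with -3.49, -3.72 and -3.52 at the 3 times. Cyp2a22 ran from 25.1 to 41.0 CPM in fed WT and from 2.65 to 6.42 CPM in fed α7HMZ livers, with -3.27 ± 0.13 in the fed average (9.67-fold, adjusted p = 1.1e-12). Neither gene overlapped between genotypes at any setting. The 20:30 difference of Cyp2a22 was -3.30 ± 0.22, and -2.65 without the 4 libraries with most Rn45s, Krt19 or Ctrb1. From 13:30 to 20:30 Cyp2a12 rose in α7HMZ (log2 0.72 ± 0.19, adjusted p = 0.0376), a call lost with the replicate block (adjusted p = 0.0556) and without WT 10:30 replicate 2, WT 13:30 replicate 3, α7HMZ 13:30 replicate 1 or 2 or α7HMZ 20:30 replicate 2 (adjusted p 0.0501 to 0.222), and the same step in WT was 0.52 ± 0.19 (adjusted p = 0.0556).

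Neither gene was called for fasting in WT, with Cyp2a12 at 368, 463 and 422 CPM (log2 -0.08 ± 0.15, adjusted p = 0.732) and Cyp2a22 at 28.4 to 33.3 CPM (-0.14 ± 0.19, adjusted p = 0.635). The fasted α7HMZ livers held 15.8, 14.7 and 16.6 CPM of Cyp2a12, all below every fed α7HMZ liver (log2 -1.32 ± 0.16, adjusted p = 0.000172). Cyp2a22 was at 0.840, 1.48 and 2.02 CPM there (log2 -1.41 ± 0.26, adjusted p = 0.00294). Against fasted WT the differences were -4.74 ± 0.18 and -4.41 ± 0.24. The genotype by fasting term of Cyp2a12 was -1.24 ± 0.22 (adjusted p = 0.0333; lost with the replicate block and without any 1 of 8 of the 12 libraries at 10:30, namely each WT fed, WT fasted replicates 2 and 3 and each α7HMZ fasted replicate), which again cannot be told apart from the flow cell.

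Cyp2a4 and Cyp2a5, near copies in sequence, parted by genotype. Fed WT livers held 23.5, 25.3 and 36.1 CPM of Cyp2a4 at 10:30, 81.6, 58.9 and 59.4 at 13:30, and 94.2, 103 and 102 at 20:30. Fed α7HMZ livers held 83.3, 57.1 and 40.8 CPM at 10:30, 128, 227 and 124 at 13:30, and 91.9, 206 and 173 at 20:30. The α7HMZ livers were above all WT livers at 10:30 and 13:30 and overlapped with them at 20:30. The log2 fold change was 1.00 ± 0.17 in the fed average (2.01-fold, adjusted p = 0.000174), 1.10 ± 0.30 at 10:30 (adjusted p = 0.0167), 1.26 ± 0.29 at 13:30 (adjusted p = 0.00673) and 0.66 ± 0.29 at 20:30 (adjusted p = 0.12). Leaving out WT replicate 1 or 2 or α7HMZ replicate 1 ended the 10:30 call (adjusted p = 0.0764, 0.0703 and 0.0754), and α7HMZ replicate 2 decided the 13:30 call (adjusted p = 0.0598 without it), while 20:30 passed without α7HMZ replicate 1 (0.93, adjusted p = 0.0284).

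For Cyp2a5, fed WT livers held 178, 218 and 317 CPM at 10:30, 638, 520 and 481 at 13:30, and 771, 821 and 873 at 20:30. Fed α7HMZ livers held 307, 177 and 236 CPM at 10:30, 513, 620 and 579 at 13:30, and 409, 850 and 964 at 20:30. The genotypes overlapped at every fed time. The fed average difference was -0.02 ± 0.15 on the log2 scale (adjusted p = 0.934), and its sign turned under other scalings. Between 10:30 and the later times, time of day cannot be told apart from the flow cell. The step from 13:30 to 20:30 was 0.59 ± 0.26 in WT (adjusted p = 0.108) and 0.38 ± 0.26 in α7HMZ (adjusted p = 0.454).

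After the fast, WT livers held 20.9, 13.7 and 25.6 CPM of Cyp2a4 and 173, 121 and 197 CPM of Cyp2a5, and neither difference from fed WT was called (log2 -0.50 ± 0.32, adjusted p = 0.277; -0.54 ± 0.28, adjusted p = 0.181). Fasted α7HMZ livers held 8.30, 13.9 and 19.0 CPM of Cyp2a4 and 58.2, 67.2 and 110.2 CPM of Cyp2a5. In α7HMZ both were lower in fasted than in fed livers, with log2 fold changes of -2.13 ± 0.33 (adjusted p = 0.000822) and -1.61 ± 0.29 (adjusted p = 0.00244). Neither this difference nor that from fasted WT can be told apart from the flow cell. Against fasted WT, Cyp2a4 differed by -0.55 ± 0.32 (adjusted p = 0.269) and Cyp2a5 by -1.06 ± 0.28 (adjusted p = 0.0235). The Cyp2a5 call was lost without WT fasted replicate 1 or 3 (adjusted p = 0.0537 and 0.0828) or α7HMZ fasted replicate 1 or 2 (0.0757 and 0.0771).

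**Figure D3:**
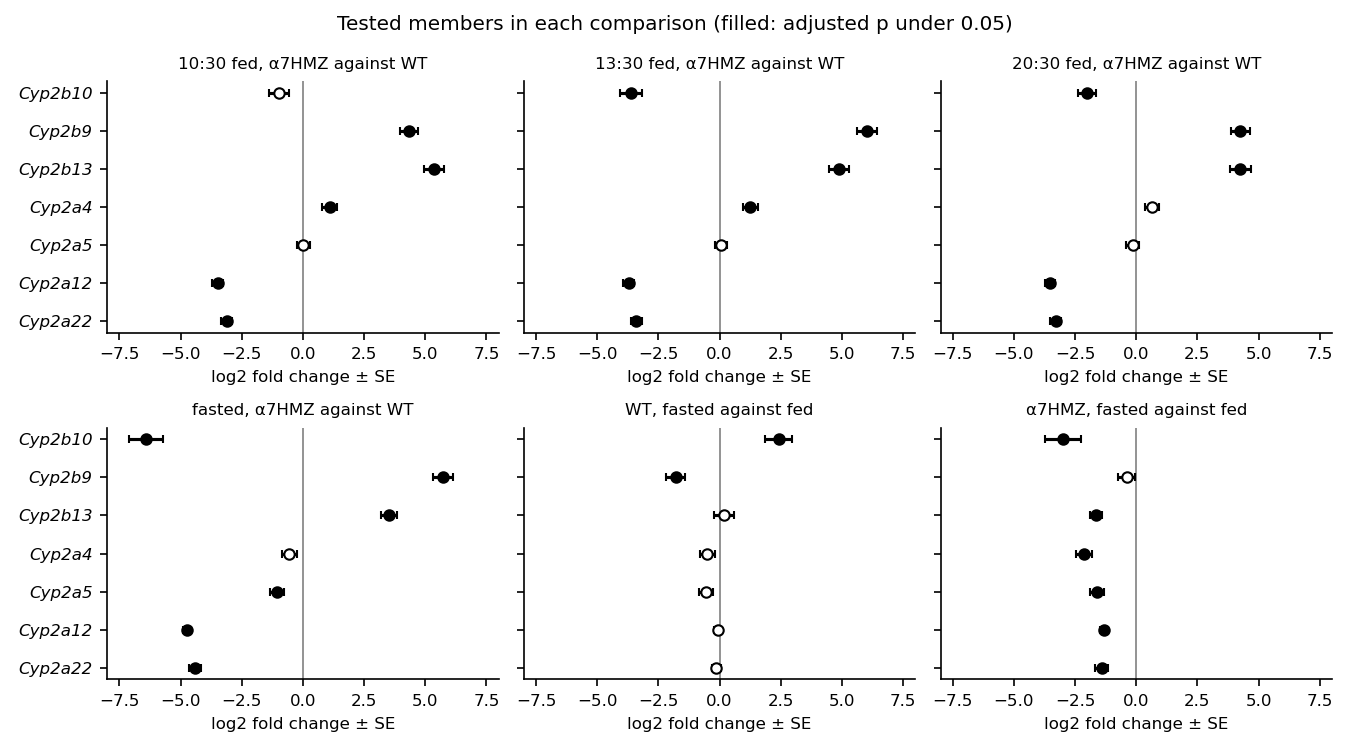
Log2 fold change ± SE of the 7 tested members in 6 comparisons, with filled points for an adjusted p under 0.05. Cyp2b10 lies left of 0 in every genotype comparison and on opposite sides of 0 in the fasting comparisons, at 2.41 in WT and -3.01 in α7HMZ. The fasted α7HMZ livers cannot be told apart from their flow cell.

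Read against all genes, 5 of the 7 members were called at 10:30, 3 higher and 2 lower, where 17.3% of all genes were called (8.36% higher, 8.98% lower). At 13:30 there were 6, 3 in each direction (12.8% of all genes, 6.19% higher and 6.61% lower), and at 20:30 there were 5, 2 higher and 3 lower (19.1%, 8.29% and 10.8%). Fasting was called for 2 in WT, Cyp2b10 higher and Cyp2b9 lower (22.7% of 13103 genes, 12.0% higher and 10.6% lower), and for 6 in α7HMZ, all lower (12.6% of all genes, 6.68% higher and 5.90% lower). The fasted genotypes differed for 6, of which Cyp2b9 and Cyp2b13 were higher (15.5%, 6.90% higher and 8.65% lower), and genotype by fasting was called for Cyp2b10 and Cyp2a12, both negative (0.252%, 0.160% positive and 0.0916% negative). The fasting comparisons and the fed and fasted genotype comparisons at 10:30 share libraries. Counts that involve the fasted α7HMZ livers cannot be told apart from their flow cell.

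Near copies were also read against each other within a library. The ratio of Cyp2a5 to Cyp2a4 counts was 7.58 to 8.85 in all 12 WT livers, although both genes varied with time and fasting, and 2.73 to 7.02 in the 12 α7HMZ livers, with no overlap. In fed livers the log2 ratio differed by -1.001 between genotypes (p = 0.00025, exact two-sided permutation of genotype within time over 8000 arrangements, the smallest p it can give; adjusted p = 0.00075 over 3 pairs), a test chosen after the values were seen. The ratio of Cyp2a12 to Cyp2a22 was 12.3 to 14.8 in WT and 8.23 to 18.8 in α7HMZ livers, and differed by -0.31 on the log2 scale in fed livers (exact permutation p = 0.00175, adjusted p = 0.002625). For Cyp2b9 to Cyp2b13 it ran from 2.89 to 25.0 in WT, where Cyp2b13 had few counts, and from 8.74 to 24.3 in α7HMZ livers (0.13, exact permutation p = 0.635). With the counts of a pair summed, the fed difference was 4.87 for Cyp2b9 plus Cyp2b13, -3.55 for Cyp2a12 plus Cyp2a22 and 0.13 ± 0.15 for Cyp2a4 plus Cyp2a5 (adjusted p = 0.568), so the rise of Cyp2a4 was not detectable in the sum, most of which was Cyp2a5.

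**Figure D4:**
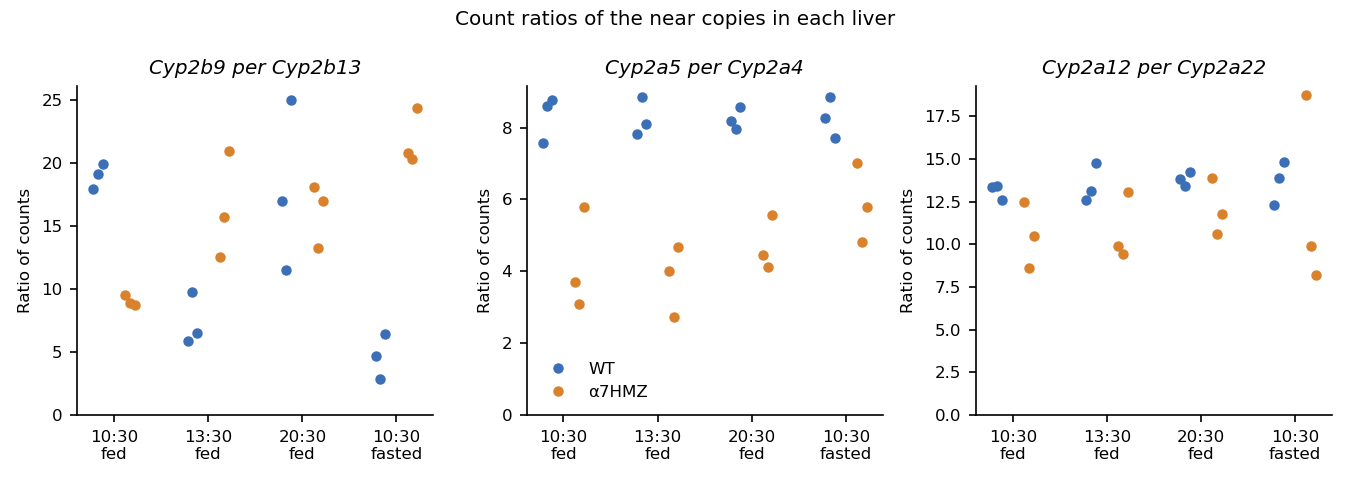
Ratio of the counts of 2 near copies in each liver, by time and feeding, for Cyp2b9 per Cyp2b13, Cyp2a5 per Cyp2a4 and Cyp2a12 per Cyp2a22, with WT in blue and α7HMZ in orange. The Cyp2a5 to Cyp2a4 ratio lay between 7.58 and 8.85 in every WT liver and at 7.02 or below in every α7HMZ liver.

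Cyp2b10 was then set against each paralog within a library, where the scaling of libraries cancels. The log2 ratio of Cyp2b10 to Cyp2b9 counts was -1.32 to 3.10 in fed WT and -7.65 to -3.70 in fed α7HMZ livers, a difference of -7.22. It differed by -7.09 for Cyp2b13, -3.20 for Cyp2a4 and -2.20 for Cyp2a5, and by 1.35 for Cyp2a12 and 1.04 for Cyp2a22, whose own fall was larger than that of Cyp2b10. By exact two-sided permutation within time, adjusted over the 6 pairs, p was 0.0005 for Cyp2b9, Cyp2b13 and Cyp2a4, 0.001875 for Cyp2a5, 0.006 for Cyp2a12 and 0.0275 for Cyp2a22. The ratios to Cyp2a12 and Cyp2a22 differed by 2.47 and 2.11 at 10:30, 0.04 and -0.31 at 13:30 and 1.54 and 1.32 at 20:30. They were not called from 13:30 and 20:30 alone (exact permutation, adjusted p = 0.114 and 0.29) or without the 4 libraries with most Rn45s, Krt19 or Ctrb1 (0.052 and 0.205). That to Cyp2a22 was also lost without WT 10:30 replicate 2 (0.0545) or 3 (0.05725).

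**Figure D5:**
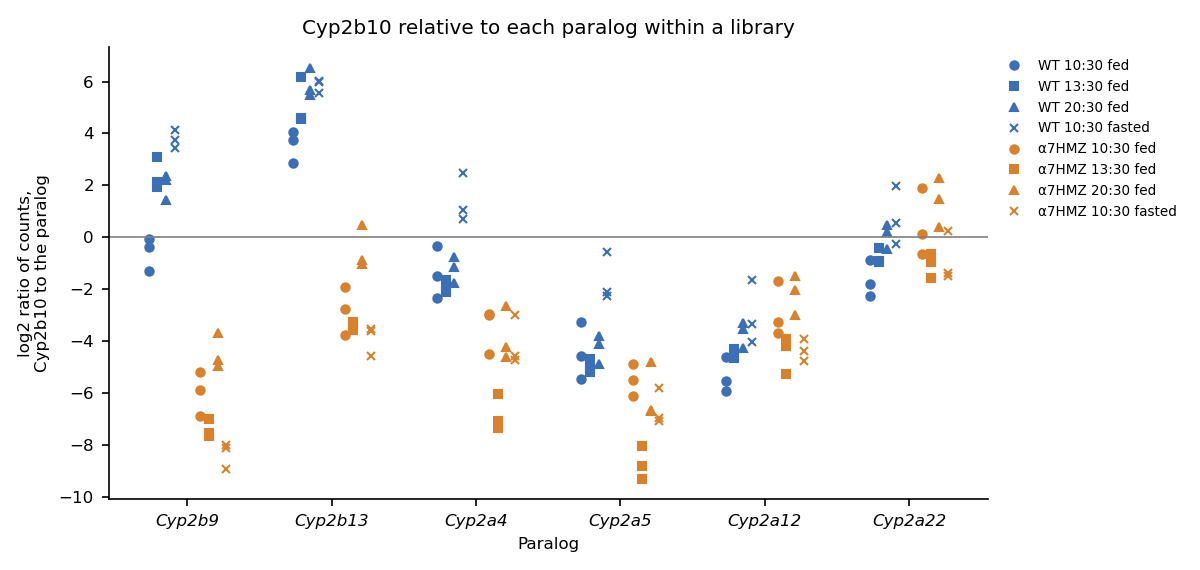
Log2 ratio of Cyp2b10 counts to the counts of each paralog in each of the 24 livers, with WT in blue and α7HMZ in orange and a marker for each time and feeding. For Cyp2b9 and Cyp2b13 no α7HMZ liver reached a WT liver, and for Cyp2a12 and Cyp2a22 the genotypes overlapped.

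Per kb of transcript, the CPM of fed livers at 10:30 ranked Cyp2a12 first in WT (261 ± 9.37), before Cyp2a5 (118 ± 35.4), Cyp2a22 (18.7 ± 0.901), Cyp2a4 (16.3 ± 3.93), Cyp2b9 (8.70 ± 2.15), Cyp2b10 (6.02 ± 3.17) and Cyp2b13 (0.461 ± 0.124). In α7HMZ, Cyp2b9 came first (176 ± 23.3), before Cyp2a5 (119 ± 32.4), Cyp2a4 (34.8 ± 12.3), Cyp2a12 (23.2 ± 5.67), Cyp2b13 (19.4 ± 1.74), Cyp2b10 (3.13 ± 2.11) and Cyp2a22 (2.098 ± 0.564). The values are levels in CPM per kb with SD (n = 3), and the α7HMZ group holds the library rich in Rn45s. They were divided by the full transcript length, without regard to the share of windows found in no other gene. That share was 94.8% for Cyp2b9 and 74.5% for Cyp2a5, so ranks between genes may depend on how shared reads were treated. At the later times Cyp2a5 came first in both genotypes, with 272 ± 40.6 at 13:30 and 408 ± 25.4 at 20:30 in WT, before Cyp2a12 (234 ± 28.4 and 334 ± 11.1), and with 284 ± 26.8 and 368 ± 146 in α7HMZ, before Cyp2b9 (123 ± 21.2 and 125 ± 25.2). At 10:30, Cyp2a22 and Cyp2a4 in WT, Cyp2b9 and Cyp2b10 in WT, Cyp2a4 and Cyp2a12 in α7HMZ, Cyp2a12 and Cyp2b13 in α7HMZ and Cyp2b10 and Cyp2a22 in α7HMZ differed by less than their summed SDs. The same held for the first 2 genes in WT at 13:30, Cyp2a5 and Cyp2a12.

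The transcript of CAR itself was low in α7HMZ, and CAR protein was not measured. Nr1i3 ran from 58.2 to 155 CPM in fed WT and from 3.59 to 12.6 CPM in fed α7HMZ livers, with a log2 fold change of -3.72 ± 0.12 in the fed average (adjusted p = 7.39e-14). Nr1i3 was higher in fasted than in fed livers of both genotypes, by 1.55 ± 0.19 in WT (adjusted p = 9.95e-05) and 1.30 ± 0.22 in α7HMZ (adjusted p = 0.00149, not told apart from the flow cell). Cyp2b10 was higher in the fasted livers of WT alone. The related receptor PXR (Nr1i2) was at -0.12 ± 0.09 in the fed average (adjusted p = 0.337). Of 16 genes of CAR and its regulators, 1 was higher (Ncoa1, a coactivator, 0.36 ± 0.08) and 3 were lower in the fed average, with Nr0b2, the corepressor SHP, at -0.43 ± 0.12 and Nr3c1, the glucocorticoid receptor, at -0.19 ± 0.06 beside Nr1i3, and the median of the 16 was -0.12. These 4 of 16, like the 2 of 8 cluster neighbours and 2 of 10 growth hormone axis genes given further on, lie near the 26.5% of all genes called in the fed average, so nothing is read from those counts.

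Other targets of CAR and PXR did not move as 1 group. Of 17 tested, 4 were higher and 5 lower in the fed average (median log2 0.05), with the P450 genes Cyp2c29 at -2.01 ± 0.11 and Cyp2c55 at -1.58 ± 0.17, the carboxylesterase Ces2a at -0.77 ± 0.08 and the organic anion transporter Slco1a4 at 0.99 ± 0.10. With fasting in WT 5 rose and 6 fell, and Cyp2c55 fell by 3.73 ± 0.30 where Cyp2b10 rose. Of 9 genes of electron transfer and haem synthesis, Alad was higher (0.29 ± 0.06) and 4 were lower in the fed average, among them the cytochrome b5 reductase Cyb5r3 (-0.93 ± 0.07), Cyb5b (-0.42 ± 0.07) and Pgrmc1 (-0.41 ± 0.07). Por was at -0.03 ± 0.09 (adjusted p = 0.83) in that comparison. With fasting Por rose by 1.28 ± 0.20 in WT (adjusted p = 0.000586) but not in α7HMZ (-0.22 ± 0.19, adjusted p = 0.51, with the flow cell).

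Other genes in and beside the cluster were read from a chosen list of 10, of which 8 were tested, and not from all genes there. Of these, Cyp2g1, between Cyp2b19 and Cyp2a5 and known from the nasal mucosa, was higher (1.35 ± 0.21, adjusted p = 6.74e-05). Cyp2f2, beyond Cyp2a12, was lower (-1.20 ± 0.08, adjusted p = 8.04e-10). Of 11 tested female-biased genes outside the 2 families, 4 were higher and 1 lower (median 0.27), with Acot3 at 2.54 ± 0.37, Cyp17a1 at 2.24 ± 0.15 and Cyp2c69 at -0.88 ± 0.16. Male-biased genes were lower for 10 of 13 and higher for 1 (median -0.83), with Mup7 at -5.34 ± 0.34, Mup20 at -1.48 ± 0.10, C6 at -1.08 ± 0.12 and Cyp2d9 at -0.83 ± 0.07. In the growth hormone axis 2 of 10 were lower, the receptor Ghr (-0.44 ± 0.07) and Igf1 (-0.27 ± 0.06), and none was higher.

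Markers of cell types were read beside these results, since fewer cells of a type and less RNA per cell cannot be told apart in whole liver. Hepatocyte markers summed to 84542 to 151713 CPM in fed WT and 77573 to 119701 CPM in fed α7HMZ livers, with 3 of 5 lower. Perivenous markers, of the zone where Cyp2b and Cyp2a genes are mostly expressed, were lower for 4 of 6 (10250 to 18285 against 8234 to 10724 CPM), and so were periportal ones for 4 of 6 (4117 to 5493 against 2162 to 4351 CPM). Bile duct markers were higher for 2 of 5 (36.3 to 70.0 against 49.1 to 90.2 CPM), 1 of 5 stellate and 1 of 2 pancreas markers were lower, and none of 5 Kupffer and 5 endothelial markers was called by edgeR. With fasting in WT, 4 of 5 endothelial markers were lower (223 to 267 CPM fed, 104 to 171 CPM fasted) and 2 of 5 bile duct markers were higher (47.6 to 55.6 against 60.5 to 69.8 CPM). In α7HMZ, Kupffer markers summed to 169 to 230 CPM in fed and 111 to 589 CPM in fasted livers at 10:30. Between the fasted genotypes, α7HMZ livers were lower for 4 of 6 periportal markers (2123 to 2704 against 6046 to 6514 CPM), 3 of 6 perivenous (9215 to 9777 against 14197 to 15180 CPM) and 1 of 5 hepatocyte markers (77248 to 92657 against 129355 to 147615 CPM). Of 5 bile duct markers 3 were lower and 1 higher (52.5 to 67.7 against 60.5 to 69.8 CPM), and 2 of 5 endothelial (178 to 228 against 104 to 171 CPM) and 1 of 5 Kupffer markers (111 to 589 against 72.0 to 134 CPM) were higher. Of all genes, edgeR called 26.5% in the fed average, 22.7% with fasting in WT and 15.5% between the fasted genotypes. A count of 1 of 5 markers lies near these shares, and nothing is read from it. The part of the markers in the results for the Cyp2b and Cyp2a genes was not tested. Marker values of fasted α7HMZ livers cannot be told apart from the flow cell.

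By the root mean square distance between the 8 centred group means of log2 CPM, among the 10950 genes whose mean log2 CPM was 1 or more, the genes outside the 2 families most like Cyp2b10 were Mfsd2a (0.55), a fasting-induced lipid transporter, Cyp2c37 (1.02), Entpd8 (1.03) and the sulfotransferases Sult1a1 (1.05) and Sult1b1 (1.13). Mfsd2a stood at 154 ± 32.0 CPM in fasted WT and 3.70 ± 1.62 CPM in fasted α7HMZ livers (SD, n = 3). Nearest to Cyp2b9 outside the members were Pcp4l1 (1.09), Serpina7 (1.42), Rad51b (1.43), 1810064F22Rik (1.72) and Golm1 (1.72). For Cyp2a5 they were Tef (0.40), a D-box factor of the clock output, Tspan4 (0.40), Tgm1 (0.46), the clock gene Per2 (0.47) and Lect1 (0.50). Among the members, the distance was 0.17 for Cyp2a12 and Cyp2a22, 0.47 for Cyp2a4 and Cyp2a5, 0.79 for Cyp2b9 and Cyp2b13 and 4.46 for Cyp2b9 and Cyp2b10, while Cyp2b10 lay at 0.97 from Cyp2a12 and 0.96 from Cyp2a22.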

How the data were processed

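Each of 24 mouse livers gave 1 poly(A) library, read from 1 end over 75 bases. The authors placed reads on mm10 by TopHat2 2.1.1 with only 1 unique alignment kept, and made counts per gene by HTSeq 0.6.1 (tools and versions from the submitters' notes). The deposited raw counts were used, and the deposited FPKM were not. How reads that match several copies equally were treated is otherwise not given in the sources used here.

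Tests used edgeR 4.0.16 under R 4.3.3 (filterByExpr, TMM, glmQLFit and glmQLFTest, Benjamini-Hochberg over all genes tested): 18 fed libraries in 1 fit (13334 genes), and 12 libraries at 10:30 in another (13103 genes). SE is the log2 fold change over the square root of F. Ratios of Cyp2b10 to each paralog with at least 10 counts in at least 9 fed libraries, as log2 of count plus 1, were tested by exact permutation within time, with a smallest p of 0.00025. The members and lists were chosen with earlier results of these data known. Text names all members, up to 4 genes of a list by smallest fed p, the 5 nearest genes to Cyp2b10, Cyp2b9 and Cyp2a5, and Nr1i3, Nr1i2, Hnf4a, Por and Cyp2f2 always, except 1 list gene that is not reported here. Annotation came from GENCODE and promoters from RefSeq, in which all 9 members matched. GC content was found for 93.0% of symbols. The tests were tested on simulated data with 200 genes changed. Alternatives included DESeq2 1.42.0, other scalings, filters and fits, and leaving out each library. Replicate numbers did not pair the mice, and no 2 libraries of the same group were duplicates (chi-square per degree of freedom at least 11.0). Libraries of different groups were not compared in this check. The limit given for Cyp2b19 covers counting error only, whereas the SEs include the spread between mice. Python 3.11.15, pandas 2.3.3, Biopython 1.88 and matplotlib 3.10.9 were used for tables, sequences and plots.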

Additional observations from a re-analysis of the deposited data

Results flagged for a closer look

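Between the fed times, of which 10:30 lay on another flow cell, the genotype difference of Cyp2b10 differed by the test of the genotype by time term (edgeR adjusted p = 0.0425, 3 mice per group). This call was lost without any 1 of 10 of the 18 libraries, in a fit of all 24 libraries (0.0812) and without the 4 libraries with most Rn45s, Krt19 or Ctrb1 (0.0877). The response of Cyp2b10 to fasting at 10:30 differed between genotypes by -5.42 on the log2 scale, with all 3 fasted WT livers above and all 3 fasted α7HMZ livers below their fed groups. It was lost without any 1 of 6 of the 12 libraries, and was -4.56 without WT fasted replicate 1. That of Cyp2a12 differed by -1.24, with all 3 fasted α7HMZ livers below the fed ones and the WT groups overlapping. It was lost without any 1 of 8 of the 12 libraries, with the replicate block (adjusted p = 0.0519) and in the test against a 1.2-fold change (adjusted p = 0.0785). The fasted α7HMZ livers cannot be told apart from their flow cell.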

How the results depend on the processing

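Under the other settings, the counts of members called in the fed average and in each genotype comparison stayed within 1.5 times the reported count. Members called for genotype by time numbered 1 as reported, 2 with upper quartile factors, DESeq2 or no filter on low counts (Cyp2b9 joining), and 0 with all 24 libraries in 1 fit or, chosen after seeing the data, without the 4 libraries with most Rn45s, Krt19 or Ctrb1. For WT 20:30 against 13:30 the count rose from 2 to 6 with only the groups compared and to 4 without those 4 libraries. For α7HMZ 20:30 against 13:30 it went from 2 to 1 with only the groups compared, with the replicate block and in the test against a 1.2-fold change. For genotype by fasting it went from 2 to 5 with DESeq2 and to 1 with the replicate block or the test against a 1.2-fold change. The cause was not tested. Leaving out each library in turn gave 0 to 2 members for genotype by time, 1 to 4 for WT 20:30 against 13:30, 1 to 2 for the α7HMZ step, 0 to 3 for genotype by fasting, and 5 to 6 ratios of Cyp2b10 that differed.

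Signs turned only for values that were not called. The fed average of Cyp2a5 was 0.0105 with upper quartile factors and 0.24 with offsets for GC content. Its 10:30 difference was -0.22 without the 4 libraries, and its 20:30 difference 0.15 with the GC offsets and 0.0534 without the 4 libraries. In the α7HMZ step from 13:30 to 20:30, Cyp2b9 was at -0.0687 with the GC offsets and -0.0400 without the 4 libraries, Cyp2b13 at 0.0175 with the replicate block and 0.16 without the 4 libraries, and Cyp2a4 at 0.35 without them. Cyp2a12 was at 0.0137 in fasted against fed WT with the GC offsets. Leaving out 1 library gave ranges from -0.10 to 0.0745 (fed average), -0.22 to 0.28 (10:30), -0.0211 to 0.19 (13:30) and -0.39 to 0.14 (20:30) for Cyp2a5, -0.21 to 1.06 for Cyp2b13 in the WT step, -0.14 to 0.15, -0.30 to 0.21 and -0.27 to 0.31 for Cyp2b9, Cyp2b13 and Cyp2a4 in the α7HMZ step, and -0.64 to 0.47 for Cyp2b13 with fasting in WT.

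Mice of the same replicate number did not deviate together (correlation of deviations -0.162 to 0.0804), so the numbers were not taken as pairs. With the replicate block Cyp2b10 at 10:30 was -0.96 (adjusted p = 0.0293, now called), and 2 calls of Cyp2a12 were lost (0.72 in the α7HMZ step and -1.22 for genotype by fasting). The call of Cyp2a22 with fasting in α7HMZ was lost with only the groups compared (-1.39), and that of Cyp2a5 between fasted genotypes in the test against a 1.2-fold change. Genotype by fasting was called for Cyp2b9 without WT fasted replicate 1 (2.20, adjusted p = 0.0264). Over all genes, genotype by time was called for 665 genes by edgeR and 1584 by DESeq2, and genotype by fasting for 33, with 201 by DESeq2, 54 with no filter, 92 with all 24 libraries and 20 with the block. With only the groups compared, 10:30 went from 2312 to 1451, 20:30 from 2551 to 1548, α7HMZ fasting from 1648 to 872 and the fasted genotypes from 2037 to 1352. The test against a 1.2-fold change gave 1465 for the fed average (3536 as reported), 1052 at 10:30, 892 at 13:30 (1706), 1136 at 20:30, 1153 for the WT step (2879), 294 for the α7HMZ step (695), 1689 for WT fasting (2968), 933 for α7HMZ fasting, 1062 for the fasted genotypes and 18 for genotype by fasting. A leave-out that left 1 group with 2 mice used the spread of all groups in the fit.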
